A study of Rattus norvegicus with 26 samples.

Results

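The Wnt ligands, their Frizzled receptors, the Lrp5/6 co-receptors, the Ror receptors and the secreted inhibitors of the Sfrp and Dkk families were examined in rat spinal cord after a compression injury. Members were chosen by gene name, and a gene entered when at least 5 reads were counted in at least 3 libraries. Of 41 genes with a matching name, 38 met this minimum, out of 32883 genes in the table: 17 Wnt ligands, 10 Frizzled receptors, 4 Sfrp genes, 3 Dkk genes, 2 Lrp co-receptors and 2 Ror receptors. The 3 genes below the minimum were Wnt3a and Wnt8a, with 4 reads each over all 26 libraries, and Dkk1, with 0 reads.

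RNA sequencing covered 26 poly(A) libraries from spinal cord segments of 5 mm around the lesion, or from the matching segment of uninjured rats. All rats were wild-type adult female Sprague-Dawley animals, labelled as postnatal day 70, and the study's methods state that rats were given cyclosporin A, an immunosuppressant, without saying whether Intact rats received it. Intact (n = 4) held intact or sham rats, and sub-SCI (n = 3) held rats with a clip compression of 60 g for 1 min at T10, taken at the time of transplantation. The remaining rats carried the same injury and received mesenchymal stem cells from human umbilical cord (hUC-MSCs, +MSC) or PBS vehicle (+PBS) by the intrathecal route on day 7 after injury. They were taken 1, 2 or 4 weeks post-transplantation (wpt), which gave +PBS-1w (n = 3), +PBS-2w (n = 2), +PBS-4w (n = 4), +MSC-1w (n = 3), +MSC-2w (n = 3) and +MSC-4w (n = 4). The groups therefore differ in time after injury as well as in treatment, and only Intact was uninjured. The study's methods call the libraries of a group biological replicates, while the labels tie no library to an animal, and p-values measure the spread between these libraries.

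Wnt proteins are lipid-modified secreted ligands. In the canonical branch a Wnt binds a Frizzled receptor together with Lrp5 or Lrp6, β-catenin escapes degradation and TCF/LEF factors switch on target genes. In the non-canonical branches, Wnt5a-type ligands act through Frizzled, Ror and Ryk receptors on cell polarity, movement and calcium. Sfrp proteins carry a Frizzled-like domain that binds Wnt ligands, and some Dkk proteins act on Lrp5/6. In the spinal cord, Wnt signals pattern the dorsal neural tube and guide growing axons in development, and Wnt7a and Wnt7b are known for their part in building the blood-brain barrier.

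The total count per library lay between 19496602 and 43468509. Defining markers of cord tissue were present in every library. Summed over 15 neuron markers, the level was 12455 to 14927 CPM (counts per 1e+06 counts of the scaled library) in Intact and 622 to 2822 CPM in sub-SCI. Summed over 12 microglia and macrophage markers, it was 376 to 617 CPM in Intact and 4039 to 5326 CPM in sub-SCI. Some libraries stood apart from the rest of their group. Intact replicate 1 and +MSC-2w replicates 2 and 3 had the lowest sums of 10 leptomeningeal markers of all 26 libraries (469, 550 and 529 CPM). +PBS-1w replicate 3 had a sum of 6709 CPM, against 1343 and 1695 CPM in the others of its group. +PBS-4w replicate 1 had a neuron sum of 7920 CPM, against 2207 to 3049 CPM in the other +PBS-4w libraries.

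Upstream sequences are shown for the genes that were called higher, or lower, in all of the 4 injury comparisons described below (4 genes that were higher and, for comparison, Wnt3, which was lower). RefSeq promoters matched 25 of the 38 members by symbol, and of the 5 genes in question Fzd2 had no entry. Each sequence is the 250 bases before the gene's start in the RefSeq annotation of GRCr8, which is a later build than the Rnor6 genome the reads were aligned to. All lie on the plus strand and read 5′ to 3′. Capitals mark the GC box, GGGCGG, on either strand. Wnt4 is at chr5:154797200-154797449, Wnt5a at chr16:3703415-3703664, Fzd1 at chr4:30264824-30265073 and Wnt3 at chr10:89179974-89180223.
Wnt4: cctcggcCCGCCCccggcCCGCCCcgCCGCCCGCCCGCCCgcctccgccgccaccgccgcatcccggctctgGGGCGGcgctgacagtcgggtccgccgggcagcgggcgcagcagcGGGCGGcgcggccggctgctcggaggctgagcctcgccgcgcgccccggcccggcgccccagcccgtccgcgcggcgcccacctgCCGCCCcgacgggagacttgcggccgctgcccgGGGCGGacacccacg
Wnt5a: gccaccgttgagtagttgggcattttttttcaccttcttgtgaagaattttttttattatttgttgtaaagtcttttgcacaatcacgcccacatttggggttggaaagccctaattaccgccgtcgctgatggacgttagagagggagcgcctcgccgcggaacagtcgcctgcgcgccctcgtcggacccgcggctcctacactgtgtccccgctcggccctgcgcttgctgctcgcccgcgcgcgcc
Fzd1: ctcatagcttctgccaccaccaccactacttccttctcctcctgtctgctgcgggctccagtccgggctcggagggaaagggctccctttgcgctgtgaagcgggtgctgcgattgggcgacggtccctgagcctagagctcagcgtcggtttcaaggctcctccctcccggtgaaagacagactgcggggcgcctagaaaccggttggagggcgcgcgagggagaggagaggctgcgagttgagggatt
Wnt3: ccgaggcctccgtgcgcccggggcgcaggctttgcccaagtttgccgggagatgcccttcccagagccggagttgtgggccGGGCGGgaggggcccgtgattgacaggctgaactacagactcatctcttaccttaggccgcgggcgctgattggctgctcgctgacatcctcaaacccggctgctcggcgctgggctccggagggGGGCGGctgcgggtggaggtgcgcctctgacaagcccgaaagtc

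Of these windows, that of Wnt4 was 86.4% G and C with 47 CpG dinucleotides and 9 GC boxes, some of which overlap. Wnt3, which moved the other way, had 68.4% G and C, 22 CpG dinucleotides and 2 GC boxes. Wnt5a (57.2%, 25 CpG) and Fzd1 (63.6%, 18 CpG) had no GC box. Over the 25 matched members, 14 (56%) held a GC box, against 30.5% of 33469 windows of the same length in the table, and the median G and C content was 68.0% against 51.2%. The TCF/LEF core CTTTGAT was in 0 of 25 member windows and 3.15% of all windows. The AP-1 site TGANTCA was in 1 of 25 and in 6.34% of all, and the TATA motif TATAAA was in 0 of 25 and in 12.9% of all. All motifs were searched on both strands, and a match is a description of letters only.

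In Intact cords the levels of the members spanned a wide range. Levels between genes are compared only as CPM per kb of gene length. Dkk3, a divergent Dkk protein, was highest at 27.6 ± 6.32 CPM per kb (SD, n = 4). Fzd10 (12.2 ± 1.11), Dkk4 (11.4 ± 0.502), Wnt7a (11.3 ± 0.934), Fzd9 (9.23 ± 1.45) and Lrp6 (8.89 ± 1.32) followed in CPM per kb, and the libraries of neighbours in this order overlapped, apart from Dkk3, which lay above Fzd10 in each library. The rat table lists Fzd10 as a pseudogene, so its reads are assigned to a gene model of uncertain status. Among the ligands, Wnt7a and Wnt7b were the highest, whereas Wnt1, Wnt9b and Wnt10b were among the lowest. Fzd8 was the lowest member, with 1 to 12 reads per library, and was not tested.

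**Figure D1:**
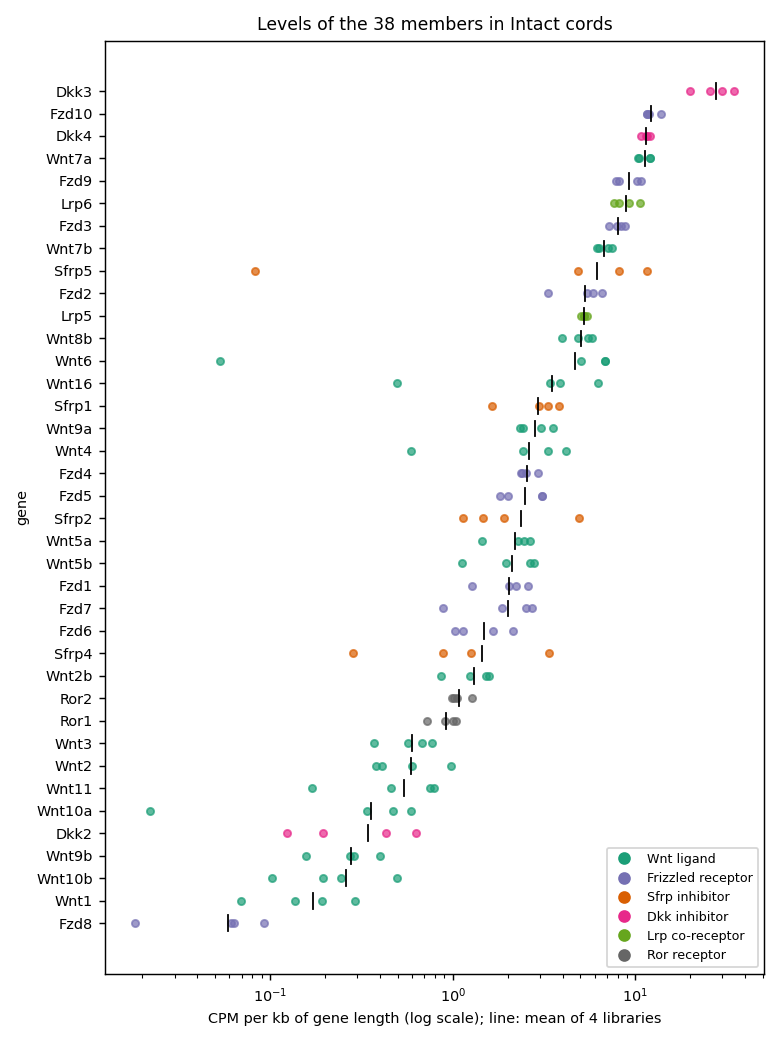
Level of each of the 38 members in the 4 Intact libraries, in CPM per kb of gene length on a log axis. Points are libraries, lines are means and colors are families. Dkk3 lies highest at a mean of 27.6 CPM per kb, and in Wnt6, Sfrp5, Wnt4, Wnt10a and Wnt16 a single point, Intact replicate 1, lies far to the left of the others.

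To find how the injury moved the members, sub-SCI and each +PBS group were compared with Intact. A gene was called when its absolute log2 fold change was above 1 and its adjusted p was under 0.01 (edgeR quasi-likelihood test, Benjamini-Hochberg over 17990 genes tested, of which 37 were members). Calls are those of this edgeR fit to all libraries unless another tool is named. Over the 4 comparisons, 16 members were called higher at least once, 5 were called lower at least once, and 16 were called in none, where 20.2% of all genes tested were called higher at least once and 18.8% lower. Wnt4, Wnt5a, Fzd1 and Fzd2 were higher in all 4 (7.46% of all genes tested), and Wnt3 was lower in all 4 (5.14%). The calls of these 5 genes at 2 wpt each depended on single libraries, as given with each gene. These comparisons share the Intact libraries, so their calls are not independent of each other. In tissue libraries like these, fewer cells of a type and less RNA per cell cannot be told apart.

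In sub-SCI, 11 of 37 members tested were called higher (29.7%) and 4 lower (10.8%), where 16.6% of all genes tested were called higher and 17.5% lower. In +PBS-1w, 8 members were higher and 5 lower (21.6% and 13.5%), against 13.5% and 12.5% of all genes. In +PBS-2w, 5 were higher and 1 lower (13.5% and 2.7%), against 8.84% and 5.66%. In +PBS-4w, 12 were higher and 3 lower (32.4% and 8.11%), against 13.3% and 10.7%. The median log2 fold change of the 37 members was 0.21, 0.58, 0.19 and 0.85 in these 4 comparisons, and that of all genes tested was -0.02, -0.01, 0.00 and 0.05. Some counts depended on 1 library. Without sub-SCI replicate 3 the count in sub-SCI was 9, and without +PBS-1w replicate 3 the count at 1 wpt was 8. The count at 2 wpt, where +PBS has 2 libraries, was 2 without Intact replicate 1, 3 without Intact replicate 2, 0 without +PBS-2w replicate 1 and 2 without +PBS-2w replicate 2.

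**Figure D2:**
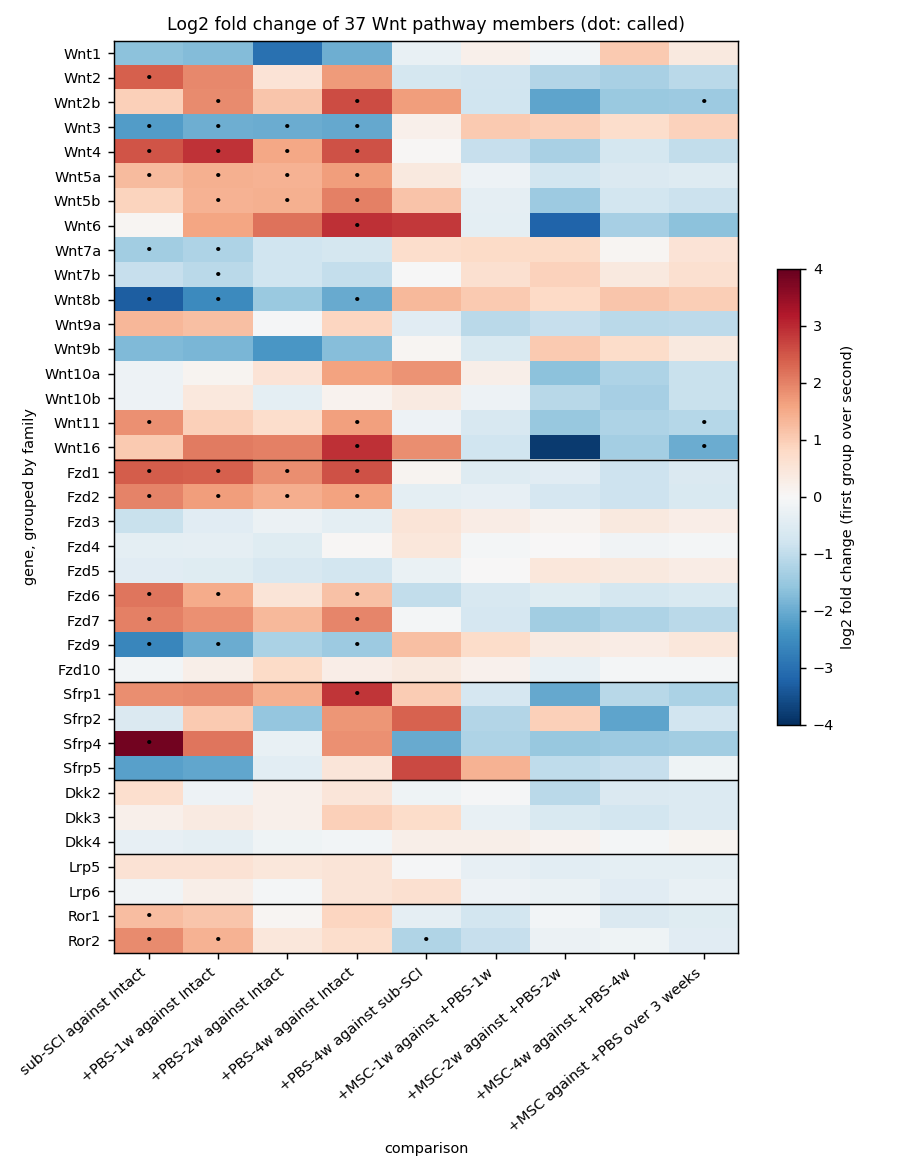
Log2 fold change of the 37 members tested (rows, by family) in the 9 comparisons (columns), red for higher and blue for lower in the first group named, with a dot where the gene was called. The first 4 columns carry 15, 13, 6 and 15 dots, the weekly +MSC columns carry 0, and the last column carries 3, on Wnt16, Wnt2b and Wnt11.

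Wnt4, a ligand used in kidney and gonad development and in the guidance of commissural axons, rose in sub-SCI and in every +PBS group. Its levels were 3.44, 24.2, 19.4 and 14.2 CPM in Intact, 90.1, 73.4 and 97 CPM in sub-SCI, 64.8, 118 and 161 CPM in +PBS-1w, 58.6 and 31.5 CPM in +PBS-2w, and 52.8, 115, 94.6 and 94.7 CPM in +PBS-4w. Every library of these injured groups lay above every Intact library, and Intact replicate 1 lay far below the other Intact libraries. The log2 fold change was 2.50 ± 0.414 (SE) in sub-SCI (5.65-fold, adjusted p = 2.17e-05), 2.90 at 1 wpt (7.46-fold), 1.55 at 2 wpt (2.93-fold, adjusted p = 0.00975) and 2.54 at 4 wpt (5.82-fold). The call at 2 wpt, with an adjusted p close to the threshold, was lost without any 1 of 20 libraries. DESeq2 and edgeR on the groups compared did not call it either.

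Wnt5a, the classic non-canonical ligand, stood at 7.26, 11.4, 13.2 and 12.3 CPM in Intact and at 20.4, 18.9 and 40 CPM in sub-SCI. It was at 20, 23.4 and 45.4 CPM in +PBS-1w, 30.2 and 27.6 CPM in +PBS-2w, and 20.9, 48.7, 31.9 and 38.3 CPM in +PBS-4w. No library of these groups fell into the Intact range, and the fold was 2.4 in sub-SCI (adjusted p = 0.00276) and 3.16 at 4 wpt (log2 fold change 1.66 ± 0.322, adjusted p = 0.000202). The calls in sub-SCI and at 1 wpt were lost without sub-SCI replicate 3 and without +PBS-1w replicate 3, the highest library in each, and that at 2 wpt without either +PBS-2w library or Intact replicate 1 or 2.

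Wnt5b, the close relative of Wnt5a, was not called in sub-SCI (11.1, 8.23 and 11.2 CPM against 2.89, 7.19, 6.8 and 5.02 CPM in Intact) but was called at all 3 later times. At 1 wpt the call was lost without +PBS-1w replicate 3 (log2 fold change 0.75, adjusted p = 0.0674) and by edgeR on the groups compared (1.43, adjusted p = 0.0212). At 2 wpt it was lost without Intact replicate 1 or 4, without +PBS-2w replicate 1 (1.18, adjusted p = 0.117) or 2, and by edgeR on the groups compared (adjusted p = 0.0103). In +PBS-4w its levels were 14.6, 32.9, 19.9 and 21.5 CPM, a log2 fold change of 2.02 ± 0.336 (4.05-fold, adjusted p = 4.07e-05). In the RefSeq annotation of GRCr8 this gene overlaps others, and the strand setting of the counting is not stated.

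Wnt2 and Wnt11 were called higher in sub-SCI. Wnt2, a canonical ligand of lung and vessel development, was at 1.69, 2.61 and 8.31 CPM in sub-SCI against 0.546, 0.504, 1.3 and 0.798 CPM in Intact (log2 fold change 2.40 ± 0.618, adjusted p = 0.00195), and its log2 fold change of 1.70 in +PBS-4w was not called (adjusted p = 0.0195). Wnt11, a ligand of cell movement in gastrulation, was at 4.27, 3.19 and 7.6 CPM in sub-SCI against 0.437, 1.19, 2.04 and 1.94 CPM in Intact (1.83 ± 0.458, adjusted p = 0.00159). It was called again in +PBS-4w (2.79, 7.51, 3.89 and 3.4 CPM, log2 fold change 1.64). In both genes the highest sub-SCI library was replicate 3, and the sub-SCI calls were lost without it (Wnt2 then had a log2 fold change of 1.44 and an adjusted p of 0.0544). The Wnt11 call at 4 wpt was lost without Intact replicate 1, Intact replicate 2 or +PBS-4w replicate 2, and by edgeR on the groups compared.

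Wnt2b, Wnt6 and Wnt16 were not called in sub-SCI and were called higher at 4 wpt. Wnt2b was at 3.17, 3.62 and 6.58 CPM in sub-SCI and at 2.61, 22.5, 20.5 and 11.1 CPM in +PBS-4w, against 1.53, 2.2, 2.82 and 2.7 CPM in Intact. At 4 wpt the log2 fold change was 2.61 ± 0.571 (6.11-fold, adjusted p = 0.00065), while +PBS-4w replicate 1 lay inside the Intact range. Its call at 1 wpt (17.6 CPM in replicate 3 against 3.92 and 4.55 CPM) had an adjusted p of 0.00971 by edgeR, close to the threshold, and was lost without any 1 of 19 libraries, replicate 3 among them (log2 fold change then 0.87, adjusted p = 0.24). That call was also lost by edgeR on the groups compared and with replicate as a block.

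Wnt6, a ligand of epithelia, was at 0.109, 14.1, 14 and 10.4 CPM in Intact, 10.4, 6.67 and 13.4 CPM in sub-SCI, and 41, 104, 86.5 and 60.1 CPM in +PBS-4w. All 4 libraries of +PBS-4w were above every Intact and sub-SCI library. Its log2 fold change at 4 wpt was 2.91 ± 0.759 (7.51-fold, adjusted p = 0.00291). Wnt16, a ligand of bone and joints, was at 0.819, 6.41, 10.3 and 5.66 CPM in Intact, 6.89, 9.32 and 20.3 CPM in sub-SCI, and 10.5, 79.7, 45.8 and 41.7 CPM in +PBS-4w (2.93 ± 0.691, 7.61-fold, adjusted p = 0.00127). In both genes Intact replicate 1 was far below the other Intact libraries. Fitted by edgeR on Intact and +PBS-4w alone, neither gene was called at 4 wpt (adjusted p = 0.0196 for Wnt6 and 0.0113 for Wnt16), and DESeq2 on those groups did not call Wnt6 either (adjusted p = 0.0147).

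The ligands that fell were Wnt3, Wnt7a, Wnt7b and Wnt8b. Wnt8b, a ligand of forebrain patterning, had the largest fall. It was at 8.02, 7.06, 8.42 and 5.82 CPM in Intact and at 0.698, 1.23 and 0.305 CPM in sub-SCI, and these ranges were far apart. The log2 fold change was -3.30 ± 0.468 in sub-SCI (adjusted p = 3.25e-06), -2.54 at 1 wpt, -1.48 at 2 wpt (not called) and -2.01 at 4 wpt (3.17, 1.59, 1.61 and 0.872 CPM). In GRCr8 the gene overlaps Sec31b, a gene of vesicle coats, whose own log2 fold change in sub-SCI was -1.08 (adjusted p = 0.00255) from 10.2 CPM in Intact. How the reads of the 2 genes were divided was not tested.

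Wnt3, a canonical ligand, was low throughout, with 1.09, 2.02, 2.27 and 1.67 CPM in Intact. It was at 0.407, 0.544 and 0.17 CPM in sub-SCI, 0.595, 0.448 and 0.32 CPM in +PBS-1w, 0.288 and 0.594 CPM in +PBS-2w, and 0.894, 0.247, 0.358 and 0.184 CPM in +PBS-4w. Every one of these libraries lay below every Intact library. Its log2 fold change was between -2.23 ± 0.464 in sub-SCI (adjusted p = 0.000272) and -1.94 at 1 wpt. At 2 wpt the call was lost without Intact replicate 2 or 3, without +PBS-2w replicate 1 (-1.54, adjusted p = 0.144) or 2 (-2.59, adjusted p = 0.0134), with no filter on low counts (adjusted p = 0.0109) and by edgeR on the groups compared (adjusted p = 0.0109). Without +PBS-4w replicate 1 the value at 4 wpt was -2.68.

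Wnt7a was at 38.1, 37.9, 33.1 and 32.8 CPM in Intact and at 17.3, 15.5 and 7.76 CPM in sub-SCI (-1.39 ± 0.34, adjusted p = 0.00129), and the sub-SCI call was lost without replicate 3. It was called at 1 wpt as well (-1.23 ± 0.338, adjusted p = 0.00408), a call lost without either of Intact replicates 1 and 2 or +PBS-1w replicates 1 and 3. By edgeR on the groups compared it was not called at 1 wpt. At 4 wpt its levels were 33.9, 13.6, 15.6 and 24.3 CPM, and replicate 1 was back within the Intact range (log2 fold change -0.70, not called). Wnt7b was called at 1 wpt (14.1, 16 and 6.93 CPM against 27.4, 29, 24.5 and 24 CPM in Intact, -1.08 ± 0.323, adjusted p = 0.00741), and this call was lost without any 1 of the 4 Intact libraries, +PBS-1w replicates 1 and 3 or +PBS-2w replicate 1. The Wnt7b call was also lost by edgeR on the groups compared, with replicate as a block, and with no filter or a looser filter on low counts. In sub-SCI the log2 fold change of Wnt7b was -0.91 and it was not called.

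Of the other ligands, Wnt1, Wnt9a, Wnt9b, Wnt10a and Wnt10b were called in no comparison with Intact. Wnt9b was at 0.764, 1.33, 1.94 and 1.41 CPM in Intact and at 0.378, 0.399 and 0.407 CPM in sub-SCI, and all libraries of sub-SCI and the +PBS groups were below Intact. Its log2 fold change was -1.78 ± 0.599 in sub-SCI (adjusted p = 0.0137) and -2.33 ± 0.73 at 2 wpt (adjusted p = 0.0163). Wnt9a was at 1.47, 1.42, 1.85 and 2.17 CPM in Intact and at 3.49, 2.79 and 6.82 CPM in sub-SCI (1.33 ± 0.46). The sub-SCI libraries were all above the Intact ones, but the adjusted p was 0.0162. Wnt1, at or below 0.687 CPM in every library, and Wnt10b each overlap Tuba1c in GRCr8.

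Among the receptors, Fzd1 and Fzd2 rose at every time. Fzd1 was at 5.62, 9.76, 11.3 and 8.97 CPM in Intact, 41, 38.5 and 65.2 CPM in sub-SCI, 29.1, 33.8 and 77 CPM in +PBS-1w, 37.3 and 28.1 CPM in +PBS-2w, and 29, 81.1, 47.2 and 51.3 CPM in +PBS-4w. No injured +PBS library came within the Intact range. The log2 fold change was 2.43 ± 0.391 in sub-SCI (5.4-fold, adjusted p = 1.52e-05) and 2.55 ± 0.377 at 4 wpt (5.84-fold, adjusted p = 1.02e-05). The call at 2 wpt was lost without +PBS-2w replicate 1 (1.68, adjusted p = 0.0399).

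Fzd2 was at 6.38, 10.4, 11.2 and 12.6 CPM in Intact and at 36.2, 26.4 and 57.2 CPM in sub-SCI (1.98 ± 0.347, 3.93-fold, adjusted p = 4.37e-05). In +PBS-4w it was at 17.3, 46.9, 25.1 and 33.6 CPM (1.60 ± 0.329). Its call at 2 wpt was lost without Intact replicate 1 or 2 and without +PBS-2w replicate 1 (1.40, adjusted p = 0.0587) or 2. Fzd6, a receptor of the planar polarity branch, was at 4.31, 8.93, 6.98 and 4.79 CPM in Intact and 20.9, 27.4 and 34.9 CPM in sub-SCI (2.15 ± 0.283, 4.43-fold, adjusted p = 1.22e-06), the call with the smallest adjusted p among the members in that comparison. By 4 wpt Fzd6 was at 10.1, 18.9, 15 and 11.9 CPM (1.16 ± 0.265), and this call was lost without +PBS-4w replicate 2.

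Fzd7 was called in sub-SCI (13.7, 11.4 and 43.9 CPM against 2.51, 5.27, 7.68 and 7.07 CPM, 2.02 ± 0.595, adjusted p = 0.0056) and at 4 wpt (4.55, 39.7, 18.4 and 25.2 CPM, 1.96 ± 0.568). In each group 1 library was far from the rest, high in sub-SCI replicate 3 and low in +PBS-4w replicate 1. The sub-SCI call was lost without sub-SCI replicate 3 (1.15, adjusted p = 0.114) or either of Intact replicates 1 and 2, and the call at 4 wpt without Intact replicate 1, 2 or 4 or +PBS-4w replicate 2 or 4. By edgeR on the groups compared, Fzd7 was not called at 4 wpt either.

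Fzd9 was the receptor that fell. It was at 23.5, 24.9, 18.8 and 18.2 CPM in Intact, 4.83, 3.73 and 1.8 CPM in sub-SCI, 6.9, 6.38 and 3.04 CPM in +PBS-1w, 7.14 and 10.4 CPM in +PBS-2w, and 13.9, 5.4, 6.93 and 5.28 CPM in +PBS-4w. All injured +PBS libraries were below all Intact libraries. The log2 fold change was -2.62 ± 0.371 in sub-SCI (adjusted p = 3.14e-06), -1.97 at 1 wpt, -1.28 at 2 wpt (not called) and -1.44 ± 0.317 at 4 wpt. The sub-SCI call held in all 26 fits that left out 1 library.

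Fzd3, Fzd4, Fzd5 and Fzd10 were called in no comparison. Fzd10, the highest Frizzled gene in Intact (44.4, 37.1, 37.8 and 37 CPM), stayed between 22.2 and 70.5 CPM in all libraries. Fzd3, a receptor of axon guidance, was at 22.9, 19.8, 24.2 and 21.8 CPM in Intact and at 11.6, 12.2 and 11.8 CPM in sub-SCI. These groups did not overlap, with a log2 fold change of -0.90 ± 0.325, under the minimum fold.

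**Figure D3:**
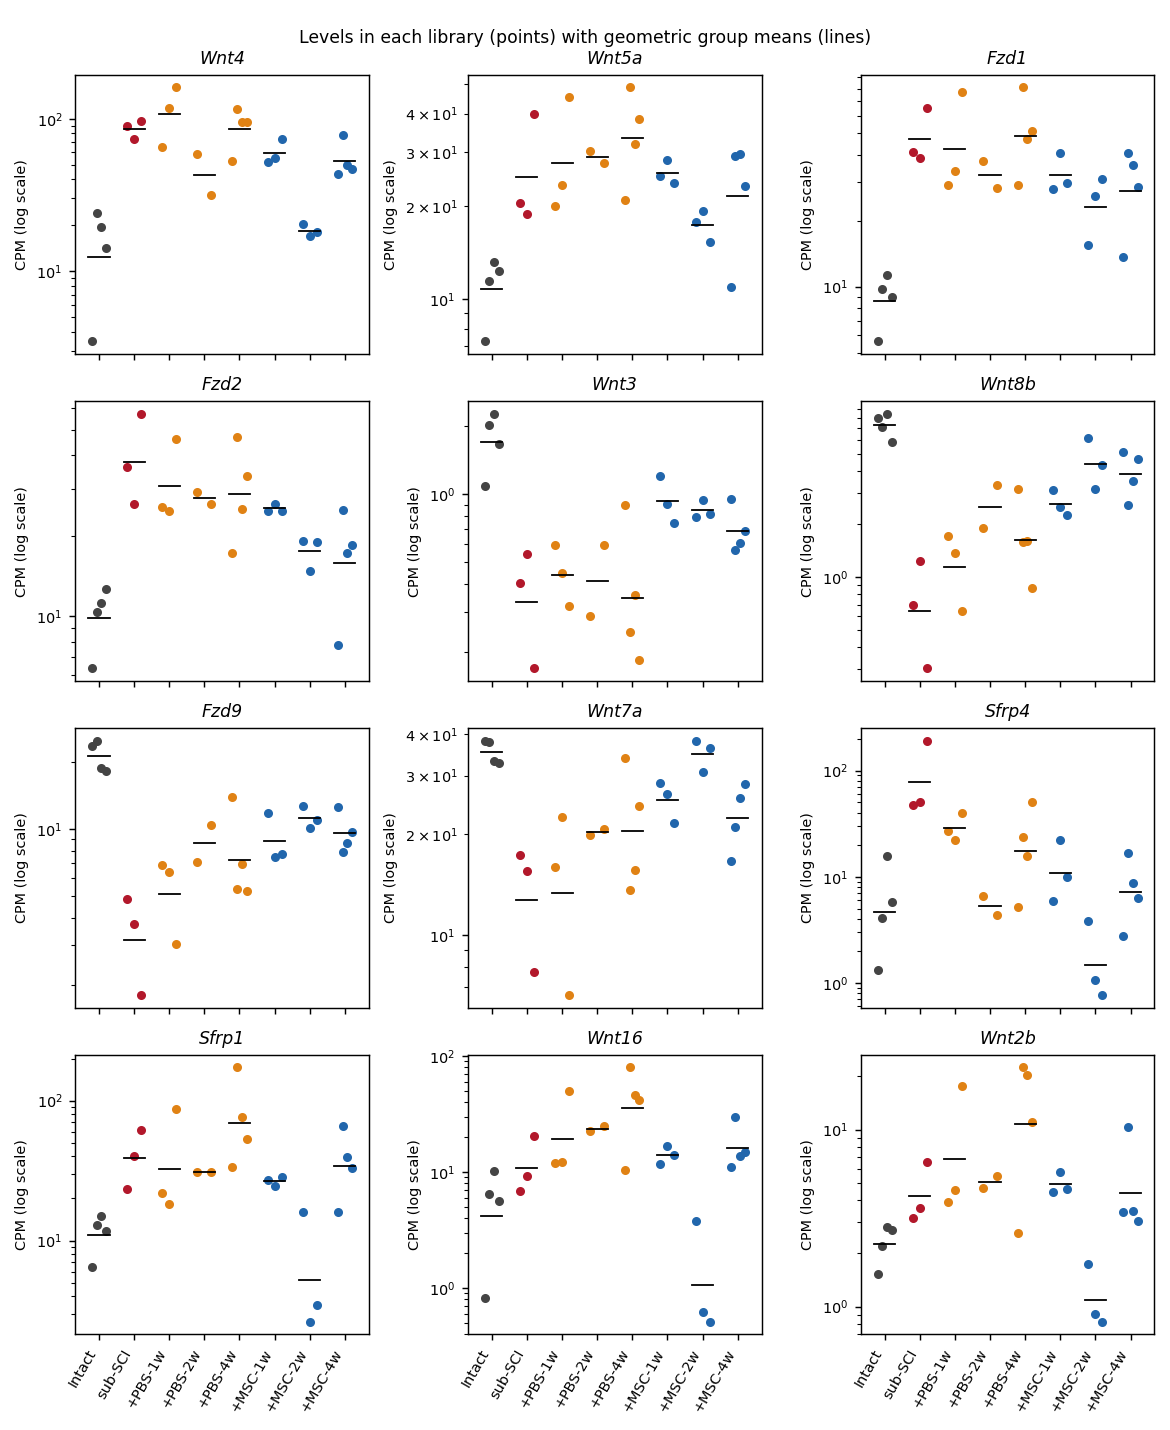
CPM on a log axis in each library (points) for 12 members, with a line at the geometric mean of each of the 8 groups. Wnt4, Wnt5a, Fzd1 and Fzd2 lie above Intact in sub-SCI and every +PBS group, Wnt3, Wnt8b and Fzd9 lie below it, and in Sfrp1, Wnt16 and Wnt2b the +MSC-2w points include the lowest of all libraries.

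Among the Sfrp inhibitors, Sfrp4 had the largest fold of any member in sub-SCI when all libraries were used. It was at 1.31, 4.08, 15.5 and 5.78 CPM in Intact and at 47.6, 50.9 and 191 CPM in sub-SCI, with no overlap, a log2 fold change of 3.85 ± 0.797 (14.4-fold, adjusted p = 0.000261). Without sub-SCI replicate 3, the highest library, it was 2.88 (adjusted p = 0.0041), and without Intact replicate 3 it was 4.67. It was at 27.1, 22.3 and 39.8 CPM in +PBS-1w, 6.59 and 4.34 CPM in +PBS-2w, and 5.14, 23.8, 15.5 and 50.2 CPM in +PBS-4w, and was not called at these times. In GRCr8 it overlaps Nme8, which was at 0.134 CPM in Intact.

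Against Intact, Sfrp1 was called higher in +PBS-4w only, although every library of sub-SCI and the +PBS groups lay above every Intact library. It was at 6.44, 12.9, 14.9 and 11.6 CPM in Intact and at 23.4, 39.9 and 61.8 CPM in sub-SCI (1.86 ± 0.627, not called). It was at 21.7, 18.2 and 87.8 CPM in +PBS-1w and at 31.1 and 30.8 CPM in +PBS-2w. In +PBS-4w it was at 33.4, 173, 75.8 and 52.9 CPM (2.87 ± 0.617, 7.31-fold, adjusted p = 0.000551). Without +PBS-4w replicate 2 the value at 4 wpt was 2.24 (adjusted p = 0.00369). Sfrp5 was at 0.164, 23, 16.2 and 9.65 CPM in Intact and at 2.21, 2.1 and 3.87 CPM in sub-SCI (-2.17 ± 0.785, not called), so that Intact replicate 1 alone was below all sub-SCI libraries while the other Intact libraries were above them. Sfrp2 ranged from 1.3 to 39.8 CPM within +PBS-4w and was called in no comparison.

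No Dkk gene was called in any comparison. Dkk3 was at 100, 128, 175 and 150 CPM in Intact and at 118, 345, 313 and 296 CPM in +PBS-4w, where 3 of 4 libraries were above all Intact libraries (0.96 ± 0.286, under the minimum fold). Dkk4 was the steadiest member, at 17.8, 17.4, 17 and 16.1 CPM in Intact and between 11.4 and 18.6 CPM over all 26 libraries, a coefficient of variation of 10.6%. Dkk2 was at or below 2.71 CPM in each library.

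Lrp5 and Lrp6, the co-receptors of the canonical branch, were called in no comparison. Lrp5 was at 25.5, 27.5, 26.5 and 26.5 CPM in Intact and at 41, 30.3 and 48 CPM in sub-SCI (0.59 ± 0.197), above Intact in each of the 3 libraries but under the minimum fold. Lrp6 was at 45.9, 42.9, 59.8 and 51.7 CPM in Intact and at 15.4, 108, 84 and 75.2 CPM in +PBS-4w (0.50 ± 0.341). The libraries of +PBS-4w thus lay on both sides of Intact, with replicate 1 below it.

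Ror2, a receptor for Wnt5a, was at 4.15, 4.99, 4.02 and 3.91 CPM in Intact, 14, 14.8 and 19 CPM in sub-SCI, 8.35, 9.14 and 16.2 CPM in +PBS-1w, 6.69 and 5 CPM in +PBS-2w, and 4.1, 9.95, 7.74 and 5.92 CPM in +PBS-4w. It rose in sub-SCI (1.90 ± 0.254, 3.72-fold, adjusted p = 1.56e-06) and at 1 wpt (1.39 ± 0.254, adjusted p = 9.87e-05) and was not called later. Ror1 was called in sub-SCI (9.42, 9.06 and 15 CPM against 5.24, 3.76, 4.72 and 5.44 CPM, 1.22 ± 0.381, adjusted p = 0.00848). That Ror1 call was lost without any 1 of 14 libraries.

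To follow the course from the subacute stage, +PBS-4w was compared with sub-SCI. Of 37 members, 0 were called higher and 1 lower (2.7%), against 4.28% and 3.09% of all genes tested. The member was Ror2, with a log2 fold change of -1.20 ± 0.25 (adjusted p = 0.00143), and no +PBS-4w library reached the lowest sub-SCI library. Without sub-SCI replicate 3 it was not called, and the count of members called was 0. Sfrp5 (2.65 ± 0.799), Wnt6 (2.84 ± 0.844) and Fzd9 (1.19 ± 0.354) had positive values that missed the threshold, as did Sfrp4 with -2.03 ± 0.744. The count was 3 without Intact replicate 1, without +PBS-1w replicate 3 or without +PBS-4w replicate 1, which enter through the shared estimate of the spread or directly. It was 2 without sub-SCI replicate 1, without +PBS-4w replicate 2 or without +MSC-2w replicate 1. Which members were called also turned on the tool. By edgeR on the 2 groups alone, Wnt6 was called higher and 0 members lower (0.306% and 1.1% of all genes), and Ror2 was not called (-1.23, adjusted p = 0.0389). DESeq2 on all libraries called Fzd9, Sfrp5 and Wnt6 higher and Fzd6 and Ror2 lower (4.84% and 3.48% of all genes), and DESeq2 on the groups compared called Wnt5b, Sfrp5, Wnt6 and Wnt10a higher and Ror2 lower (3.92% and 3.39%).

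To see whether hUC-MSCs moved the members, +MSC was compared with +PBS at each week. At 1 wpt, 0 members were called by edgeR in either direction, where 0% of all genes tested were called higher and 0.0111% lower. At an unadjusted p under 0.05, 3 members were higher and 4 lower, against 10.6% and 7.34% of all genes. At 2 wpt, 0 members were called (0% and 0% of all genes), with 1 higher and 7 lower at an unadjusted p under 0.05, against 5.49% and 6.84%. At 4 wpt, 0 members were called (0.495% and 0%), with 1 higher and 14 lower at an unadjusted p under 0.05, against 11.2% and 11.3%. DESeq2 on all libraries called 0 members at each week, and DESeq2 on the groups compared called 0 at 1 and 4 wpt and 4 at 2 wpt, the lower genes Wnt5b, Wnt4, Wnt2b and Fzd7, where 0.489% of all genes were called higher and 2.08% lower. The median log2 fold change of the members was -0.33, -0.50 and -0.71 at 1, 2 and 4 wpt, and that of all genes tested was within 0.04 of 0.

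Over the 3 weeks together (the mean of the weekly differences), 3 of 37 members were called lower (8.11%) and 0 higher, against 0.956% and 1.61% of all genes tested. They were Wnt16, Wnt2b and Wnt11. Other tools called 0 members higher but a different number lower. DESeq2 on all libraries called these 3 with Wnt9a and Sfrp1 (1.9% of all genes higher and 1.53% lower), DESeq2 on the groups compared called the 3 with Wnt9a, Fzd7, Wnt6 and Sfrp4 (1.86% and 1.63%), and edgeR on the groups compared called Wnt16 and Wnt11 (1.24% and 0.937%). At an adjusted p under 0.05 with no minimum fold, 16 members were lower and 3 higher (Wnt3, Wnt7b and Wnt8b), against 10.9% and 12.3% of all genes. By sign, 27 of 37 members were lower and 10 higher, while 9424 of 17990 genes tested were lower. This count of calls was among the least stable. It was 0 without +PBS-1w replicate 3 or without +PBS-2w replicate 1, 10 without +PBS-4w replicate 1, 6 without +MSC-4w replicate 2, and 5 without Intact replicate 1, +PBS-1w replicate 1 or +MSC-2w replicate 1. It was 1 without any one of +PBS-4w replicates 2 and 3, the 3 +MSC-1w libraries, +MSC-2w replicate 3 and +MSC-4w replicates 1, 3 and 4.

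**Figure D4:**
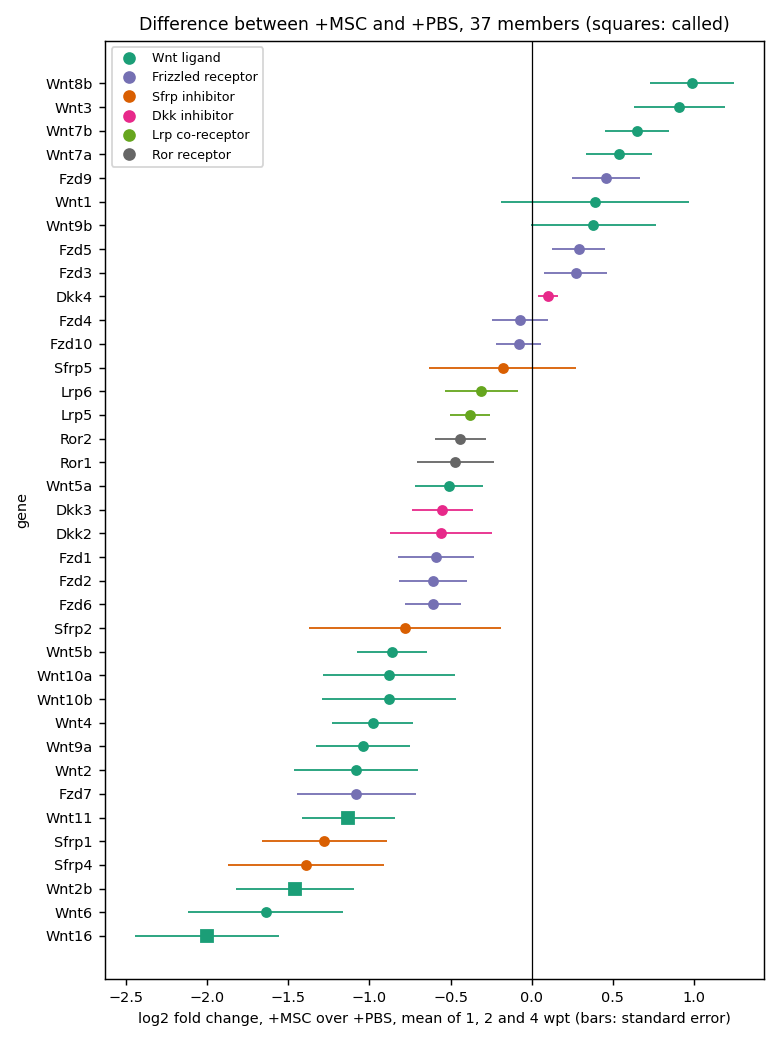
Log2 fold change of +MSC over +PBS as the mean of the 3 weekly differences, for 37 members ordered by value, with bars of 1 standard error and squares for the 3 called genes. Wnt16 lies lowest at -2.00 and Wnt8b highest at 0.99.

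Wnt16 had the largest difference. It was at 11.8, 16.7 and 13.9 CPM in +MSC-1w against 11.9, 12.1 and 50.3 CPM in +PBS-1w, at 3.76, 0.616 and 0.514 CPM in +MSC-2w against 22.6 and 24.8 CPM in +PBS-2w, and at 11, 29.7, 13.8 and 14.8 CPM in +MSC-4w against 10.5, 79.7, 45.8 and 41.7 CPM in +PBS-4w. The groups were apart at 2 wpt and overlapped at 1 and 4 wpt. Over the 3 weeks the log2 fold change was -2.00 ± 0.443 (adjusted p = 0.00386). The call was lost without +PBS-1w replicate 3 or +PBS-2w replicate 1.

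Wnt2b was at 4.45, 5.8 and 4.61 CPM in +MSC-1w, 1.75, 0.903 and 0.822 CPM in +MSC-2w, and 3.42, 10.3, 3.47 and 3.05 CPM in +MSC-4w. At 2 wpt all 3 lay below +PBS-2w (4.67 and 5.44 CPM), and at 1 and 4 wpt the groups overlapped. Over the 3 weeks the difference was -1.46 ± 0.365 (adjusted p = 0.0075).

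Wnt11 was at 2.01, 2.19 and 1.06 CPM in +MSC-1w, 1.09, 0.534 and 0.771 CPM in +MSC-2w, and 1.19, 2.45, 1.54 and 2.24 CPM in +MSC-4w, against 2.17, 1.68 and 4.4, 2.5 and 2.06, and 2.79, 7.51, 3.89 and 3.4 CPM in +PBS at the same weeks. The groups did not overlap at 2 and 4 wpt. The difference over the 3 weeks was -1.13 ± 0.287 (adjusted p = 0.00823). The calls of Wnt2b and Wnt11 were lost without any 1 of 13 and of 15 libraries.

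Wnt5b, Wnt4 and Wnt8b came next by p and were under the minimum fold. Wnt4 was at 51.7, 54.8 and 73.6 CPM in +MSC-1w, 20.3, 16.9 and 18.1 CPM in +MSC-2w, and 43.2, 78.3, 49.6 and 46.6 CPM in +MSC-4w. All +MSC-2w libraries were in the range of Intact and below both +PBS-2w libraries, and over the 3 weeks the difference was -0.98 ± 0.249 (adjusted p = 0.00846). Wnt5b was at 13.4, 9.08 and 11.2, at 7.23, 4.31 and 4.26, and at 10, 17.6, 12.6 and 12.4 CPM in +MSC at 1, 2 and 4 wpt (-0.86 ± 0.215, adjusted p = 0.00753).

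Wnt8b, which fell after injury, was at 3.13, 2.51 and 2.24 CPM in +MSC-1w, 6.14, 3.16 and 4.32 CPM in +MSC-2w, and 5.13, 2.56, 3.51 and 4.65 CPM in +MSC-4w. Its groups did not overlap at 1 wpt, where every +MSC library was higher than every +PBS library. The difference over the 3 weeks was 0.99 ± 0.259 (adjusted p = 0.00979). Of the other members that fell, Fzd9 had a difference of 0.46 ± 0.21, Wnt3 of 0.91 ± 0.279, Wnt7a of 0.54 ± 0.204 and Wnt7b of 0.65 ± 0.196.

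The receptors that rose with injury had differences of -0.59 ± 0.234 (Fzd1), -0.61 ± 0.211 (Fzd2), -0.61 ± 0.173 (Fzd6) and -1.08 ± 0.364 (Fzd7) over the 3 weeks, and none was called by edgeR on all libraries. Fzd2 was at 24.8, 26.4 and 24.8 CPM in +MSC-1w, 19.1, 14.8 and 18.9 CPM in +MSC-2w, and 7.8, 25, 17.2 and 18.5 CPM in +MSC-4w. Its groups were apart at 2 wpt and overlapped at 1 and 4 wpt. Sfrp1 (-1.28 ± 0.385) and Sfrp4 (-1.39 ± 0.481) were not called either by that fit, while DESeq2 called Fzd7, Sfrp1 and Sfrp4 in 1 of its fits each. An F test of whether the +MSC difference varied between the weeks gave 0 of 17990 genes at an adjusted p under 0.05. At an unadjusted p under 0.05 it gave 1 of 37 members, Wnt16, beside 481 of all 17990 genes.

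Markers of other cell types moved with these results. The 10 leptomeningeal markers, a list chosen after the data were seen, were all in the table, and 8 were called higher in +PBS-4w against Intact and 7 lower in +MSC against +PBS over the 3 weeks (median log2 fold change 2.68 and -1.51). Their summed level was 469 to 2865 CPM in Intact, 589 to 999 CPM in sub-SCI, 4873 to 12799 CPM in +PBS-4w and 529 to 1187 CPM in +MSC-2w. Most of the sum is Ptgds, which other cord cells also express. Without it the sum was 30.2 to 245 CPM in Intact, 293 to 611 CPM in sub-SCI, 325 to 1381 CPM in +PBS-4w and 49.1 to 162 CPM in +MSC-2w. Slc47a1, one of the markers, was at 0 CPM in Intact replicate 1.

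The 3 libraries with the lowest sums were also the 3 lowest in Wnt6, in Wnt16 and in Sfrp1. Intact replicate 1, with a sum of 469 CPM, had 0.109 CPM of Wnt6, and +PBS-4w replicate 2, with 12799 CPM, had 104 CPM. The 7 Schwann cell markers measured, which mark nerve roots, had a sum of 134 CPM in Intact replicate 1 against 766 to 1623 CPM in the other Intact libraries. These are descriptions over libraries that share a preparation, and the part of meninges and roots in the segments in these results was not tested. Setting aside the 3 libraries lowest in leptomeningeal markers takes only Intact replicate 1 out of +PBS-4w against Intact. The sums of the Intact libraries that stay, 1959 to 2865 CPM, still lie below all +PBS-4w sums (4873 to 12799 CPM). For that comparison the setting therefore cannot decide the part of the meninges. This setting was chosen once the data had been seen, and it leaves +MSC-2w with replicate 1 alone. For +MSC against +PBS over the 3 weeks, only effect sizes are therefore given. The log2 fold change was -1.60 for Wnt16, -1.26 for Wnt2b and -0.98 for Wnt11.

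**Figure D5:**
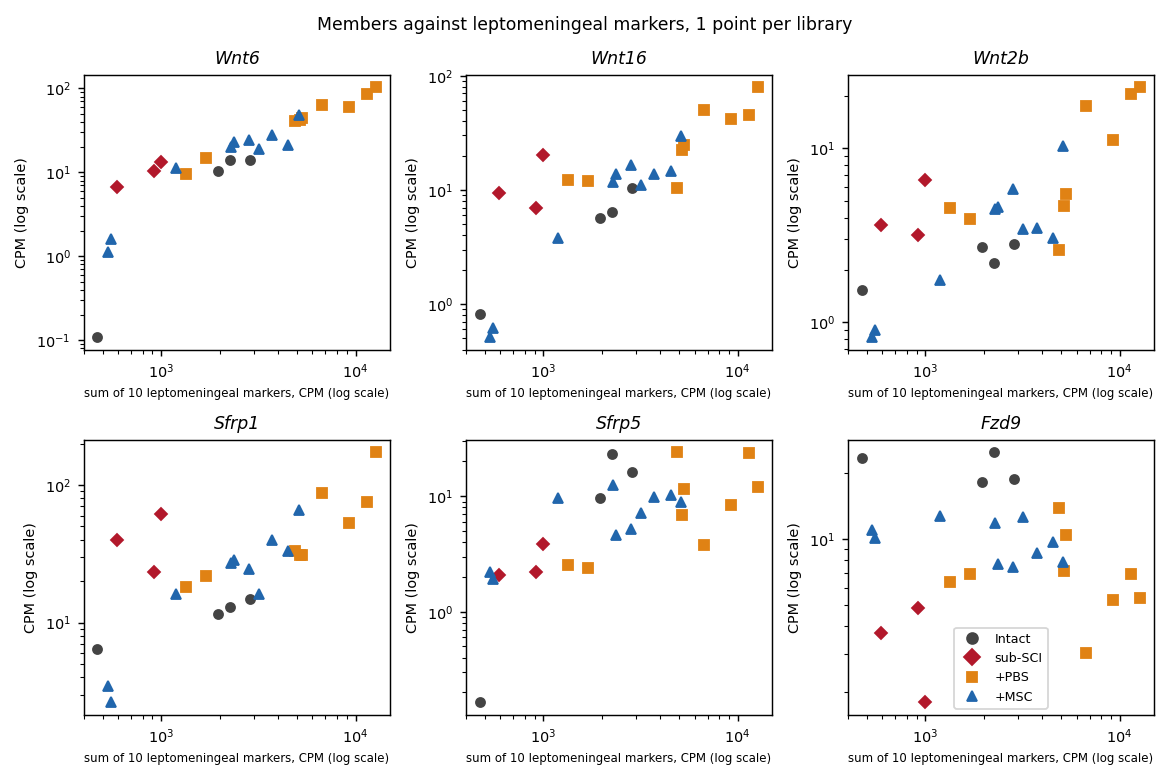
CPM of 6 members (vertical axes, log scale) against the summed CPM of 10 leptomeningeal markers (horizontal axes, log scale), 1 point per library with color and shape by group. Points of Wnt6 climb from 0.109 CPM at a sum of 469 CPM to 104 CPM at 12799 CPM. Fzd9 is highest in the Intact libraries, whose sums run from 469 to 2865 CPM and do not reach the high end.

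Other lists moved with the injury calls. The 14 fibroblast and scar matrix markers had 11 called higher in sub-SCI and 9 in +PBS-4w, with a summed level of 1518 to 2998 CPM in Intact, 12375 to 25955 CPM in sub-SCI and 4494 to 9705 CPM in +PBS-4w. The 15 neuron markers had 14 called lower in sub-SCI and 13 in +PBS-4w, and over the 3 weeks 6 were called higher in +MSC than in +PBS. Other lists fell in sub-SCI as well, with 6 of 12 oligodendrocyte markers called lower (51746 to 58629 CPM in Intact and 18027 to 36653 CPM in sub-SCI) and 7 of 12 astrocyte markers (13387 to 15239 CPM and 6796 to 13213 CPM). Of the 6 pericyte markers 2 were called higher, from 197 to 219 CPM in Intact to 494 to 721 CPM in sub-SCI, and of the 12 microglia and macrophage markers 10 were. The members that fell with injury (Wnt3, Wnt7a, Wnt7b, Wnt8b and Fzd9) thus moved beside several lists, and the part of cell composition in their levels was not tested.

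The rest of the pathway was counted by lists, and these counts stand beside 16.6% of all genes called higher and 17.5% lower in sub-SCI, and 13.3% and 10.7% in +PBS-4w. Of the R-spondin axis, which strengthens Wnt signals at the membrane, Rspo1 rose in all 4 injury comparisons, from 0.971 to 1.58 CPM in Intact to 14.1 to 17.9 CPM in sub-SCI (log2 fold change 3.81 ± 0.295, adjusted p = 8.88e-10) and 11.1 to 20 CPM in +PBS-4w (3.76 ± 0.286). Lgr5, an R-spondin receptor and a Wnt target in gut stem cells, fell in all 4, from 11.1 to 13.4 CPM to 1.95 to 3.3 CPM in sub-SCI (-2.34 ± 0.249, adjusted p = 6.44e-08). Of 7 genes of this list tested, 1 was higher and 2 lower in sub-SCI, and 1 and 1 in +PBS-4w.

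Of 7 other inhibitors tested that are secreted or sit in the membrane, 3 were higher and 1 lower in sub-SCI. They include Frzb, another name for Sfrp3, which the choice by gene name left out of the members. Sost, which encodes sclerostin, an inhibitor that binds Lrp5/6, went from 0 to 6 reads per library in Intact to 92 to 327 reads in sub-SCI and 298 to 641 reads in +PBS-4w. In +PBS-4w its level was 11.1 to 28.7 CPM, against 0 to 0.228 CPM in Intact. Draxin and Kremen1 were also higher in sub-SCI (1.66 ± 0.472 and 1.35 ± 0.284), and Wif1, which binds Wnt ligands, was lower (-1.42 ± 0.252).

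Of 8 other receptors, co-receptors and genes tied to them (the secreted ligand Ndp among them) tested, 3 were higher and 2 lower in sub-SCI, and 4 and 0 in +PBS-4w. Ryk, a Wnt receptor that repels axons, rose from 17 to 24.6 CPM in Intact to 47.3 to 69.3 CPM in sub-SCI (1.30 ± 0.144, adjusted p = 1.21e-07), and Ptk7 from 6.88 to 16.8 CPM to 46.5 to 84.9 CPM (2.27 ± 0.348). Of 20 genes of the destruction complex and the transducers tested, 4 were higher and 4 lower in sub-SCI, and 2 and 2 in +PBS-4w. Those with the largest fold in sub-SCI were Apc2 (-2.09 ± 0.172), Tcf7l2 (1.74 ± 0.222) and Lef1 (1.38 ± 0.155). Axin2, the feedback gene most often used to read canonical signalling, was at 19.6 to 24.2 CPM in Intact and 28 to 34.7 CPM in sub-SCI and was not called (0.44 ± 0.215).

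Of 12 feedback and target genes tested, 6 were higher and 2 lower in sub-SCI, and 3 and 1 in +PBS-4w. Part of this list also stands in the lists above, so its counts are not separate from theirs. Myc rose from 3.71 to 5.85 CPM in Intact to 23.5 to 30.9 CPM in sub-SCI (2.46 ± 0.206, adjusted p = 2.46e-09), and Sp5 and Ccnd1 were higher too (2.30 ± 0.465 and 2.10 ± 0.267). Of 10 planar cell polarity genes, 1 was higher (Celsr1, 1.05 ± 0.255) and 3 lower in sub-SCI, with Celsr2 (-2.10 ± 0.134) and Daam2 (-2.08 ± 0.201) the largest. Of 4 genes of Wnt secretion and release, 0 were called in sub-SCI and 1, Wls, in +PBS-4w (1.11 ± 0.157). In +MSC against +PBS, edgeR called 0 genes of all these lists at any week or over the 3 weeks.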

How the data were processed

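The authors removed adapters with Trim Galore 0.5.0, set aside reads that matched the human genome GRCh38, aligned the rest to Rnor6 with HISAT2 2.1.0, filtered with SAMtools 1.9 and counted reads per gene with featureCounts 1.6.4 (versions from the submitters' processing notes). The strand setting and the annotation release are not given in the sources used here. The deposited values are raw read counts per gene with no normalization, beside a Length column in bases, and each column of the joint table equalled the library's own file (26 of 26).

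CPM are counts per 1e+06 counts of the TMM-scaled library size (factors 0.94 to 1.05). The edgeR 4.0.16 quasi-likelihood test (R 4.3.3, default filter on low counts) was fitted once to all 26 libraries and 8 groups without covariates, and p-values were adjusted by Benjamini-Hochberg over 17990 genes. Genes with an absolute log2 fold change over 1 and an adjusted p under 0.01 were called. These are the thresholds of the study, which applied them to DESeq2 results. The standard error is the log2 fold change divided by the square root of F. The difference over 3 weeks is the mean of the weekly differences. The code was tested on simulated data. Alternatives were DESeq2 1.42.0, edgeR on the groups compared, other size factors and filters, a replicate block, other thresholds and each library left out. The study's methods give 2 repeats for +MSC-2w where the labels give 3, and the labels were followed.

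Members and lists were chosen with earlier results of these data known. The text gives every member by family, with values in each library for members called after injury, the 6 with the smallest p in +MSC against +PBS over 3 weeks and the 2 highest of each family in Intact, and up to 3 called genes per pathway list. Genes named beyond this rule, the leptomeningeal list and 2 alternatives were chosen after the data were seen.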

Additional observations from a re-analysis of the deposited data

Results flagged for a closer look

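Within groups of 4 libraries, 5 of 114 combinations of a member and a group had 1 library set far apart from the others by Dixon's test, and chance alone flags about 1 in 20. Wnt2b was at 10.3 CPM in +MSC-4w replicate 2, where the next library had 3.47 CPM, and Wnt9a was at 2.29 CPM in the same library, where the next had 1.25 CPM. Wnt9b was at 1.79 CPM in +MSC-4w replicate 1 against 0.387 CPM in the next. Fzd8 was at 0.149 CPM in +PBS-4w replicate 1, below 0.268 CPM in the next. Fzd10 was at 44.4 CPM in Intact replicate 1, above 37.8 CPM in the next.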

How the results depend on the processing

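The 56 log2 fold changes of a member in a comparison that were recomputed under the alternatives kept their sign in every one. Counts of members called moved by over 1.5 times as follows. With DESeq2 on all libraries, 5 were called in +PBS-4w against sub-SCI and 5 in +MSC against +PBS over 3 weeks. With DESeq2 on the groups compared, 11 were called in +PBS-2w against Intact, 5 in +PBS-4w against sub-SCI, 4 in +MSC-2w against +PBS-2w and 7 over 3 weeks. Median-of-ratios size factors gave 2 in +PBS-4w against sub-SCI, as did a minimum of 5 counts in 3 libraries. With replicates other than 1 (a setting chosen once the data had been seen) 0 were called in +PBS-2w against Intact and 4 in +PBS-4w against sub-SCI. With the 3 libraries lowest in leptomeningeal markers set aside, chosen likewise, 2 were called in +PBS-2w against Intact and 3 in +PBS-4w against sub-SCI. No count over 3 weeks is given for this setting, which leaves +MSC-2w with replicate 1 alone. At an adjusted p under 0.05 with no minimum fold, 24, 24, 13 and 25 members passed in sub-SCI and +PBS-1w, -2w and -4w against Intact, 9 in +PBS-4w against sub-SCI and 19 over 3 weeks. At an unadjusted p under 0.05 by edgeR, sub-SCI had 15 members higher and 10 lower, and 5815 and 5880 of 17990 genes. At 1 wpt these were 16 and 9 members and 5235 and 5189 genes. At 2 wpt they were 9 and 8 members and 4317 and 3957 genes. At 4 wpt they were 19 and 8 members and 5646 and 4734 genes. Counts here without a share of all genes are not read as a trait of the members. In +PBS-4w against sub-SCI the split between higher and lower, 0 and 1 as reported, was 3 and 2 with DESeq2 on all libraries, 4 and 1 with DESeq2 on the groups compared, 1 and 0 with edgeR on the groups compared (which shared no gene with the call reported), 1 and 1 with the replicate block, 2 and 2 with replicates other than 1, 2 and 1 with the 3 libraries set aside, and 6 and 3 at an adjusted p under 0.05. The cause of these shifts was not tested, apart from the smaller number of samples or the wider threshold that some alternatives have by construction.

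With each library left out in turn, the count ranged from 9 to 17 in sub-SCI, 8 to 19 in +PBS-1w, 0 to 7 in +PBS-2w and 12 to 20 in +PBS-4w against Intact, 0 to 3 in +PBS-4w against sub-SCI, 0 to 10 over 3 weeks, and stayed at 0 in each weekly +MSC comparison. Replicate numbers are shared between groups, and 35 of 80 pairs of same-numbered libraries had deviations correlated over 0.1. Pairs of differently numbered libraries were not set beside them, so this count cannot decide whether the numbers pair samples. The main fit left the numbers out. Replicate 1 differed from the others, with 18 of 28 pairs over 0.1 (median r 0.22), against 7 of 28 for replicate 2 and 9 of 21 for replicate 3, and was the lowest library of its group in 7 of 8 groups for Wnt16 and Fzd4. A fit with the replicate block called 2 members in +PBS-4w against sub-SCI and 5 over 3 weeks (1 higher and 4 lower). In sub-SCI against Intact the largest standard errors among the members were those of Sfrp2 (0.97), Sfrp4 (0.797), Sfrp5 (0.785) and Wnt6 (0.779).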
